A study of Mus musculus with 20 samples.

Results

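The 8 tumours described here grew in the caecum of C57BL/6J mice from 2 mouse tumour organoid (MTO) lines, and are the samples whose organoid label was 54 or 207. They made up 8 of the 20 tumours of the series, with 4 from control mice and 4 from mice given galunisertib. MTO54 was a parental line of genotype LAKP and MTO207 a parental line of genotype LAKT, and each line gave 2 control and 2 treated tumours. The labels do not spell out the genotype letters. In the published mouse model that uses these names, L stands for Cre expressed from Lgr5, A for loss of Apc, T for loss of the TGF-beta type II receptor gene Tgfbr2 and P for loss of Trp53, so that LAKP tumour cells keep Tgfbr2 and LAKT tumour cells keep Trp53. These deletions concern the tumour epithelium, and the syngeneic host keeps its own receptor and p53 genes. Each genotype was 1 line, so genotype and line cannot be told apart. Both lines were first grown under the skin, and pieces of 1 mm3 were then placed on the caecum tip. Galunisertib was dosed by gavage at 10 mg, 2 doses per day, starting on day 11, and the mice were killed at 5 weeks. Samples are labelled Con or LY, and LY was taken to mean the drug. What the control mice were given is not described in the labels. The other 12 tumours came from 3 LAKTP lines, with 6 treated.

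Galunisertib inhibits the kinase of the TGF-beta type I receptor. TGF-beta binds the type II receptor, which activates the type I receptor, and this phosphorylates Smad2 and Smad3, which enter the nucleus with Smad4. In fibroblasts the pathway is known for inducing collagen, fibronectin and the enzymes that crosslink matrix, and in normal gut epithelium for restraining growth. The comparison asked which genes differed in the same direction in LAKP and LAKT tumours under the drug, and which differed in opposite directions.

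RNA of whole tumour fragments was hybridised with 1 array per tumour, and the values are log2 levels per probe set. Each array's median lay between 4.93 and 5.12. The spread of an array's values differed between tumours. Its SD was 1.72 and 1.60 in the MTO54 controls, 1.62 and 1.61 in the treated MTO54 tumours, 1.46 and 1.46 in the MTO207 controls, and 1.57 and 1.55 in the treated MTO207 tumours. The spread was thus wider in treated than in control tumours of MTO207 and, through control replicate 1, wider in control tumours of MTO54. MTO54 control replicate 1 stood apart, with correlations of 0.956 to 0.968 with its own line and 0.900 to 0.945 with MTO207, where the other MTO54 tumours correlated with each other at 0.979 to 0.981. Epithelial markers were high in all 8 tumours, with Epcam at 9.65 to 11.2 and Krt8 at 10.7 to 11.4. Myh11 of smooth muscle ranged from 6.87 to 10.2 and the squamous keratin gene Krt14 from 5.84 to 9.49. The fibroblast receptor gene Pdgfra and the mesothelial gene Wt1 lay below the filter on dim genes. The glial marker S100b reached 4.25 and the fat marker Adipoq 4.70, both close to background.

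No gene passed the threshold over both lines. Of 15556 genes tested with limma and line as a block, 0 passed an adjusted p of 0.05 (0%), the lowest adjusted p was 0.915, and 554 genes (3.56%) had an unadjusted p under 0.05, 299 (1.92%) higher and 255 (1.64%) lower in treated tumours. No gene passed by limma within MTO54 (0 of 15556, lowest adjusted p 0.959, 444 genes or 2.85% at an unadjusted p under 0.05, with 1.05% higher and 1.80% lower) or within MTO207 (0 of 15556, lowest 0.646, 1172 genes or 7.53%, with 3.27% higher and 4.27% lower). The difference between the effects of the lines also passed for 0 genes by limma (lowest adjusted p 0.618, 1071 genes or 6.88% at an unadjusted p under 0.05, with 4.35% more positive and 2.53% more negative in MTO54). All differences below are therefore measured values that did not pass the test across genes. A log2 difference is the treated minus the control mean, and 1 on this scale is a doubling. With 2 tumours per group, the treated and control tumours of a line are called separate when both treated values lie above, or both lie below, both control values. This held for 17.8% of genes higher and 16.4% lower in MTO54, and for 26.3% higher and 31.6% lower in MTO207. By sign alone, 46.0% of genes were higher and 54.0% lower over both lines, 53.2% and 46.8% in MTO54, and 45.8% and 54.2% in MTO207, and the counts of list members below are read against these shares.

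Fewer genes differed in the same direction in both lines than in opposite directions. The sign was the same for 5417 of 15556 genes (34.8%), with 2630 (16.9%) higher and 2787 (17.9%) lower in treated tumours of both lines, while 5643 (36.3%) were higher in MTO54 and lower in MTO207 and 4496 (28.9%) the reverse. The tumours were separate and higher in both lines for 268 genes (1.72%) and separate and lower in both for 360 (2.31%). They were separate in opposite directions for 1173 genes (7.54%) that were higher in treated MTO54 and lower in treated MTO207 tumours, and for 1044 (6.71%) of the reverse kind. Across the 15556 genes, which are not independent and share the 8 arrays, the differences of the 2 lines had r = -0.20 and rho = -0.35.

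The direction followed the level of a gene. In MTO207 the median difference was -0.12 for the 4622 genes with a mean level up to 5 and 0.39 for the 1057 genes between 8 and 9. In MTO54 the median was 0.06 for the genes up to 5, -0.10 for the 1999 genes between 7 and 8 and -0.04 for the 708 genes above 9. Of the genes above 9, 91.9% were higher in treated MTO207 tumours and 42.8% in treated MTO54 tumours. The spread of the arrays moved with this pattern, and its part in the opposite directions was not tested. After quantile normalization of the deposited values, which gives every array the same spread, 40.8% of genes had the same sign in both lines and r was -0.15.

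**Figure D1:**
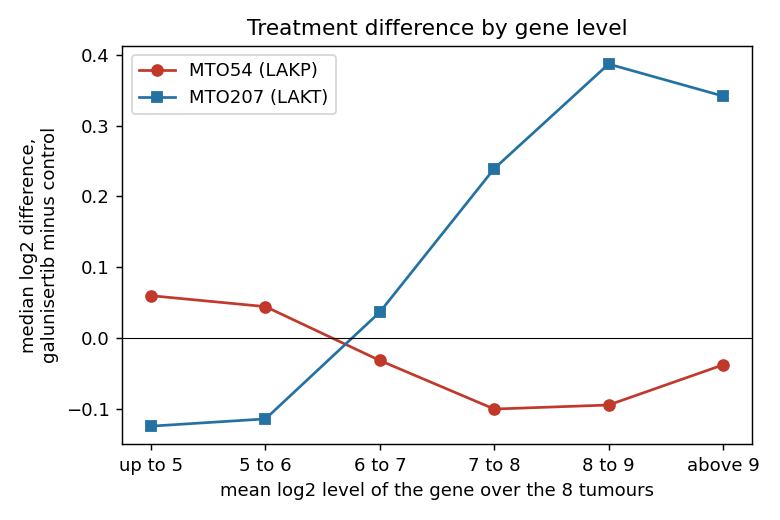
Median log2 difference, galunisertib minus control, of the genes tested, by the mean log2 level of the gene over the 8 tumours, for MTO54 (circles) and MTO207 (squares). Dim genes were lower and bright genes higher in treated MTO207 tumours, and the medians in MTO54 lay closer to 0 with the opposite order.

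Matrix genes were lower in treated tumours of both lines. Of 24 fibrillar collagen and matrix genes tested, 23 were lower over both lines, with a median difference of -0.45 against -0.01 over all genes tested, and 9 of the 24 had an unadjusted p under 0.05 in this direction, which 255 of all 15556 genes (1.64%) had. The median was -0.51 in MTO54 and -0.31 in MTO207. Treated and control tumours were separate and lower in both lines for 9 of the 24, against 2.31% of all genes: Col3a1, Col5a2, Col5a3, Eln, Emilin1, Fbn2, Fn1, Mfap4 and Sparc. Matrix genes had been seen to be lower under the drug over all lines of the series, so its direction here is not independent evidence. Without MTO54 control replicate 1 the MTO54 median was -0.24, and without MTO207 control replicate 1 the MTO207 median was -0.10. The number of members separate and lower in both lines was 9 after quantile normalization, 10 after cyclic loess and 7 after median centring. In whole fragments, fewer matrix-producing cells and less RNA per cell cannot be told apart.

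Fn1, the gene of fibronectin, a glycoprotein that links cells to collagen, measured 11.42 and 11.05 in MTO54 controls against 10.16 and 10.68 in treated tumours, and 9.81 and 9.91 in MTO207 controls against 9.34 and 9.15 in treated tumours. All treated tumours lay below the controls of their line, and the difference over both lines was -0.72 (SE 0.16, n = 4 against 4). Col3a1, a fibrillar collagen of loose connective tissue, measured 12.27 and 11.83 against 11.42 and 11.76 in MTO54, and 11.73 and 11.39 against 11.24 and 10.90 in MTO207, a difference of -0.48 (SE 0.14). The groups did not overlap in either line. Sparc, a collagen-binding secreted protein, measured 12.09 and 11.91 against 11.50 and 11.85 in MTO54, and 11.68 and 11.52 against 11.26 and 11.34 in MTO207, a difference of -0.31 (SE 0.11). Eln, the gene of elastin, measured 11.50 and 10.03 against 8.46 and 9.09 in MTO54, and 8.66 and 8.999 against 8.42 and 8.21 in MTO207. Its groups did not overlap, and its difference of -1.25 (SE 0.38) was made of -1.99 in MTO54 and -0.52 in MTO207.

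Other members of the list differed less or in 1 line. Col1a1, the major fibrillar collagen gene, differed by -0.28 in MTO54, where the groups overlapped, and by -0.32 in MTO207, where they did not. Dcn and Lum, small proteoglycans of fibroblasts, differed by -1.44 and -2.30 in MTO54 and by -0.30 and -0.31 in MTO207, and their groups overlapped in MTO207. Ogn, another small proteoglycan, was the 1 member that was higher, by 0.06. Col1a2 was separate in opposite directions, at 0.07 in MTO54 and -0.26 in MTO207, and its probe set read only 5.87 on average where that of Col1a1 read 11.5.

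The promoters of 2 of the separate genes are shown because Smad3 and Smad4 bind the letters CAGAC, and capitals mark each CAGAC or its reverse complement GTCTG. They come from RefSeq (GRCm38.p6), and each is a window of 300 bases that holds the start of the gene near its right end. Col3a1 lies at chr1:45311288-45311587 on the plus strand and Sparc at chr11:55420031-55420330 on the minus strand.
Col3a1: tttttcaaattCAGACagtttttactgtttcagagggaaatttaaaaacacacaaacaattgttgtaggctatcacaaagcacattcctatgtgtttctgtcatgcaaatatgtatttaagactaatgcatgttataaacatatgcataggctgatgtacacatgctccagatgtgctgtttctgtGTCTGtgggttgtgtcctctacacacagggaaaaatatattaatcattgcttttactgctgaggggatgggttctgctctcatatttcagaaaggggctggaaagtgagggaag
Sparc: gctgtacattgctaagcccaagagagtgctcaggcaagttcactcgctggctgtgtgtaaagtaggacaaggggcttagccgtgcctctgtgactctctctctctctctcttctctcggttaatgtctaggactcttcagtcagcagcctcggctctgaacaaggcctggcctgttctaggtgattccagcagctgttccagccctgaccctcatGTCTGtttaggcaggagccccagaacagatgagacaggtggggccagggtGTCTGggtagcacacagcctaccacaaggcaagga
Each held 2 matches. The letters are common, with at least 1 match on either strand in 49.6% of the 32851 promoters of the same length, and a match is not a binding site.

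Enzymes that modify and crosslink matrix followed the same direction, mainly in MTO54. Of 15 tested, 13 were lower over both lines, with a median of -0.49 (-0.71 in MTO54, -0.06 in MTO207), and 5 had an unadjusted p under 0.05 in this direction, against 1.64% of all genes. Lox, the lysyl oxidase gene, measured 9.14 and 8.34 against 7.21 and 7.03 in MTO54, and 7.49 and 7.83 against 6.80 and 7.29 in MTO207. Its difference was -1.12 (SE 0.26), with no overlap in either line. Loxl1, its relative that acts on elastin, measured 7.81 and 7.24 against 6.66 and 6.82 in MTO54, and 7.53 and 6.90 against 6.64 and 6.56 in MTO207, a difference of -0.70 (SE 0.19). Loxl2 and the prolyl hydroxylase subunit gene P4ha3 were also separate and lower in both lines, which makes 4 of 15 against 2.31% of all genes. Plod2, a collagen lysyl hydroxylase gene, differed by -1.51 in MTO54 and -0.39 in MTO207 and overlapped in MTO207. The MTO54 median was -0.21 without MTO54 control replicate 1, and the MTO207 median was 0.03 after median centring of the arrays.

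**Figure D2:**
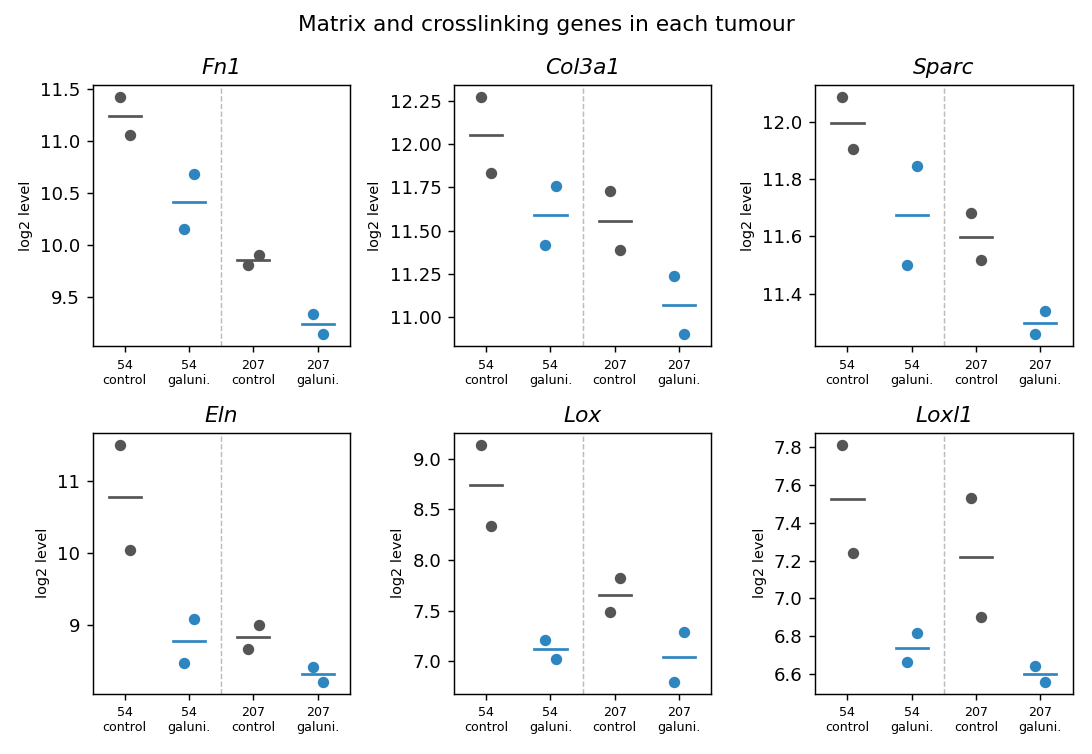
Log2 level of 6 matrix and crosslinking genes in each tumour, with 1 point per tumour, a bar at the group mean and grey points for control and blue points for galunisertib, MTO54 left and MTO207 right of the dashed line. In all 6 genes both treated tumours lie below both controls of their line.

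Basement membrane genes differed less. Of 10 tested, 9 were lower over both lines, with a median of -0.08. The laminin chain genes Lama1, Lamb1 and Lamc1 were separate and lower in both, 3 of 10 against 2.31% of all genes. For 2 of them the direction in MTO207 depended on the probe set. Another probe set gave -1.01 in MTO54 and 0.31 in MTO207 for Lamb1, and -0.78 and 0.19 for Lamc1. The remaining probe sets of Lamb1 were negative in both lines. Lama1 differed by -0.55 in MTO54 and -0.50 in MTO207. The collagen IV genes Col4a1 and Col4a2 measured -0.12 and -0.18 in MTO54 and -0.06 and 0.17 in MTO207. Of 10 other collagen genes, 9 were lower, with a median of -0.25, and Col8a1 was separate in both lines. Among 16 matrix proteases and their inhibitors 15 were lower, with a median of -0.36, but none was separate in both lines. Timp3, a tissue inhibitor of metalloproteinases, measured 9.80 and 9.64 against 8.20 and 7.64 in MTO54 and 8.66 and 8.37 against 8.45 and 8.27 in MTO207. Mmp9 was separate and lower in MTO54, at -2.17, and differed by 0.18 in MTO207.

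Of 17 fibroblast genes 14 were lower over both lines, with a median of -0.16. Sfrp1, a secreted Wnt inhibitor of stromal cells, differed by -1.05 (SE 0.33), at 8.92 and 8.22 against 7.40 and 7.44 in MTO54 and 9.19 and 7.57 against 7.76 and 7.10 in MTO207. The groups overlapped in MTO207. The mean level of the fibroblast list was 6.47 and 6.28 in MTO54 controls against 5.98 and 5.90 in treated tumours, and 6.32 and 6.00 against 6.12 and 6.01 in MTO207. Its markers thus moved with the matrix genes in MTO54 and overlapped in MTO207, and their part in the matrix differences was not tested.

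Ligand and receptor genes of the TGF-beta pathway had a small median difference over both lines, while single genes differed between the lines. Of 13 ligand and receptor genes tested, 8 were lower over both lines, with a median of -0.09. The ligand genes Tgfb1, Tgfb2 and Tgfb3 differed by -0.21, 0.04 and -0.35 over both lines. In MTO54 they differed by -0.46, 0.29 and -0.72, and in MTO207 by 0.03, -0.21 and 0.01. Tgfbr1, which encodes the target of the drug, differed by 0.01 over both lines (SE 0.33), made of -0.25 in MTO54 and 0.27 in MTO207. Tgfbr2 measured 8.39 and 7.77 against 6.90 and 7.12 in MTO54, and 8.01 and 7.48 against 7.69 and 7.65 in MTO207. Its groups were separate in MTO54 and overlapped in MTO207, with differences of -1.07 and -0.07. As T stands for loss of Tgfbr2 in the published model, the fragments of MTO207 also hold host cells that keep the gene, and which exons the probe set covers was not analysed here.

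The signal transducers and feedback genes had medians of opposite sign in the 2 lines. Of 14 tested, 2 were higher in treated MTO54 tumours (median -0.21) and 11 in treated MTO207 tumours (median 0.42). Smad3 measured 9.57 and 9.31 against 9.04 and 9.30 in MTO54 and 8.77 and 8.91 against 9.25 and 9.33 in MTO207, separate in both lines, and Smad1 was the other such member. Smad7, an inhibitory Smad that the pathway induces, differed by -0.30 and 0.28, Skil by -0.40 and 0.41, and Bambi by -0.08 and 0.44. Without MTO54 control replicate 1 the MTO54 median was 0.12. These genes had a median level of 7.32. Of all genes at levels between 7 and 8, 73.6% were higher in treated MTO207 tumours and 34.5% in treated MTO54 tumours. Members separate in opposite directions were 2 of 14, against 6.71% of all genes and 13.5% of genes at these levels.

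Known transcriptional targets of TGF-beta in stroma were lower over both lines in 15 of 17, with a median of -0.17. In MTO54 16 were lower (median -0.25), in MTO207 9 (median -0.01), and 8 were lower in both lines. Fstl3, an activin-binding protein gene, was separate and lower in both lines, at -0.54 and -0.24. Ccn2 differed by -0.02, Tgfbi by -0.32, Il11 by -0.17 and Fap by -0.30. Of 17 targets described in epithelium 11 were lower over both lines, with a median of -0.08, but the medians of the lines had opposite signs. In MTO54 15 were lower (median -0.22) and in MTO207 11 were higher (median 0.14). Cdkn1a and Zeb1 were separate in opposite directions, lower in MTO54 and higher in MTO207. This made 2 of 17, against 6.71% of all genes and 8.51% of genes at levels between 6 and 7, where the list has its median level. Snai1, a transcription factor gene of epithelial to mesenchymal transition, was separate and lower in both lines but differed by only -0.29 and -0.03 at a level close to that of dim genes.

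The genes of smallest p that were lower in both lines included Tmem200a, Cxcl5, Stk32a, Rian, Aqp9, Srpx2, Sfxn5, Thbd, Apold1, Kif16b and Leo1. Cxcl5, a neutrophil chemokine gene, differed by -1.32 in MTO54 and -0.33 in MTO207, at 5.64 and 5.70 against 4.26 and 4.44 and at 4.69 and 4.49 against 4.12 and 4.40. In the LAKTP lines its mean difference was 1.56. Apold1, an endothelial early response gene, differed by -1.10 and -0.33. Thbd, the gene of thrombomodulin, differed by -0.37 and -0.53. Rian, a long noncoding RNA gene, differed by -0.39 and -0.63, but another of its 4 probe sets gave 0.40 and 0.36, so its direction is uncertain. The other 7 differed by -0.22 to -0.94 in MTO54 and by -0.27 to -0.45 in MTO207, had mean levels between 3.94 and 5.40, and were separate in both lines except Srpx2, which overlapped in MTO207. Second, dimmer probe sets gave -0.12 in MTO54 and 0.12 in MTO207 for Tmem200a, and -0.06 and 0.06 for Kif16b. The direction of these genes in MTO207 thus depended on the probe set, while a second probe set of Aqp9 was negative in both lines.

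Among genes that were higher in both lines, Gsta4 and Slc7a11 had the smallest p. Gsta4, a glutathione S-transferase gene that acts on products of lipid peroxidation, measured 5.74 and 6.70 against 7.94 and 7.75 in MTO54, and 6.31 and 7.06 against 7.93 and 8.33 in MTO207. All treated tumours lay above the controls of both lines, and the difference was 1.54 (SE 0.24, adjusted p 0.915 by limma). Slc7a11, the cystine importer subunit that feeds glutathione synthesis, measured 4.08 and 3.96 against 4.77 and 4.89 in MTO54 and 4.60 and 4.44 against 4.95 and 5.47 in MTO207, a difference of 0.75 (SE 0.12). Its signal was close to background, and a second probe set of the gene gave 0.22 and 0.05.

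Hopx, a homeodomain protein gene expressed in differentiating and reserve cells of the gut, measured 5.57 and 5.18 against 7.82 and 6.90 in MTO54, and 5.72 and 5.57 against 6.17 and 6.57 in MTO207. It was separate and higher in both lines, with a difference of 1.36 (SE 0.29), and its dimmer probe set gave 0.37 and -0.11. Irf9, the DNA-binding subunit of the complex that type I interferon activates, measured 7.75 and 7.20 against 8.06 and 8.23 in MTO54, and 7.37 and 6.79 against 8.06 and 8.04 in MTO207, a difference of 0.82 (SE 0.19). The groups did not overlap in either line. The other genes of smallest p in this direction were Tfap4, Exosc5, Trim28, Slf2, Ptprf, Ssbp3, Slc6a9, Rplp2, Insl6, Tmem238 and Slc1a5. They were separate in both lines and differed by 0.38 to 0.80 over both. Slc1a5, a glutamine transporter gene, differed by 0.64 and 0.48, and Trim28, a chromatin repressor gene, by 0.54 and 0.49. A second, dimmer probe set gave 0.11 and -0.08 for Slc1a5 and 0.23 and 0.74 for Trim28.

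Stem cell and Wnt target genes were mostly higher in both lines. Of 16 tested 15 were higher over both lines, with a median of 0.32, and 5 had an unadjusted p under 0.05 in this direction, which 299 of all genes (1.92%) had. By sign, 11 of 16 were higher in both lines, against 16.9% of all genes. Rnf43, Notum and Ephb3 were separate and higher in both lines, 3 of 16 against 1.72% of all genes. Olfm4 was separate in opposite directions, higher in MTO54 and lower in MTO207, 1 of 16 against 7.54% of all genes. Ascl2 differed by 0.47 in MTO54 and -0.16 in MTO207. Rnf43, a ubiquitin ligase gene that Wnt signalling induces as its own brake, measured 4.67 and 4.94 against 5.54 and 5.05 in MTO54, and 4.33 and 4.69 against 5.27 and 6.26 in MTO207, a difference of 0.88 (SE 0.24). Notum, a secreted Wnt inhibitor gene, measured 6.49 and 6.92 against 6.92 and 7.60 in MTO54 and 6.60 and 6.69 against 6.88 and 7.22 in MTO207, where the closest MTO54 values agree to 2 decimals. Axin2, a common Wnt target, differed by 0.40 and 0.72 and overlapped in MTO207, and Myc by 0.25 and 0.79 with overlap in MTO54. Lgr5 measured 4.65 and 5.50 against 7.67 and 4.41 in MTO54, so its difference of 0.97 there rests on 1 tumour. The MTO207 median of 0.56 was 0.14 without galunisertib replicate 2 of that line.

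Epithelial genes were higher in 17 of 18, with a median of 0.30 (0.18 in MTO54, 0.44 in MTO207), and only Krt18 was separate and higher in both lines. Krt18 measured 10.93 and 10.77 against 10.94 and 10.95 in MTO54 and 10.48 and 10.05 against 10.67 and 10.75 in MTO207. Krt8, its partner keratin gene, differed by 0.18 and 0.44, and its MTO207 difference was -0.03 after cyclic loess normalization. The list's MTO207 median was 0.11 after that normalization, and the list's median level was 8.11, where differences over all genes were positive in MTO207.

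Colonocyte genes were higher in 13 of 16, with medians of 1.06 in MTO54 and 0.21 in MTO207, and no member was separate in both lines. Slc26a3, the chloride exchanger of mature colonocytes, measured 3.80 and 6.30 against 8.78 and 7.93 in MTO54, and 5.89 and 8.95 against 9.93 and 7.36 in MTO207. The groups were separate in MTO54 and overlapped in MTO207, where 1 control and 1 treated tumour were high. The list median in MTO54 was 0.36 without MTO54 control replicate 1, and the MTO207 median was -0.37 without MTO207 control replicate 1. Smooth muscle markers also varied between replicates. Myh11, the myosin of gut muscle, measured 7.90 and 9.83 against 10.25 and 9.44 in MTO54 and 8.84 and 9.44 against 10.16 and 6.87 in MTO207. The mean level of the 9 smooth muscle genes ranged from 6.64 to 7.75 in MTO54 and from 6.10 to 7.40 in MTO207, and its part in the colonocyte differences was not tested.

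Interferon-induced and antigen presentation genes were higher on average and varied strongly between replicates. Of 17 interferon-gamma response genes 16 were higher over both lines (median 0.65), of 10 MHC class I genes 10 (median 0.43) and of 17 type I interferon genes 14 (median 0.32). Cxcl9, a T cell chemokine gene that interferon-gamma induces, measured 8.72 and 4.86 against 9.92 and 8.56 in MTO54 and 10.14 and 5.34 against 8.75 and 8.69 in MTO207. In each line 1 control was high and 1 low, and the groups overlapped. Without MTO207 control replicate 2 the MTO207 median of the interferon-gamma list was -0.60, and without control replicate 1 it was 1.56. Irf7, an interferon-induced transcription factor gene, measured 5.17 and 5.65 against 6.34 and 6.60 in MTO54, where it was separate, and 7.20 and 5.88 against 7.02 and 6.66 in MTO207. No member of the 3 lists was separate and higher in both lines.

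**Figure D3:**
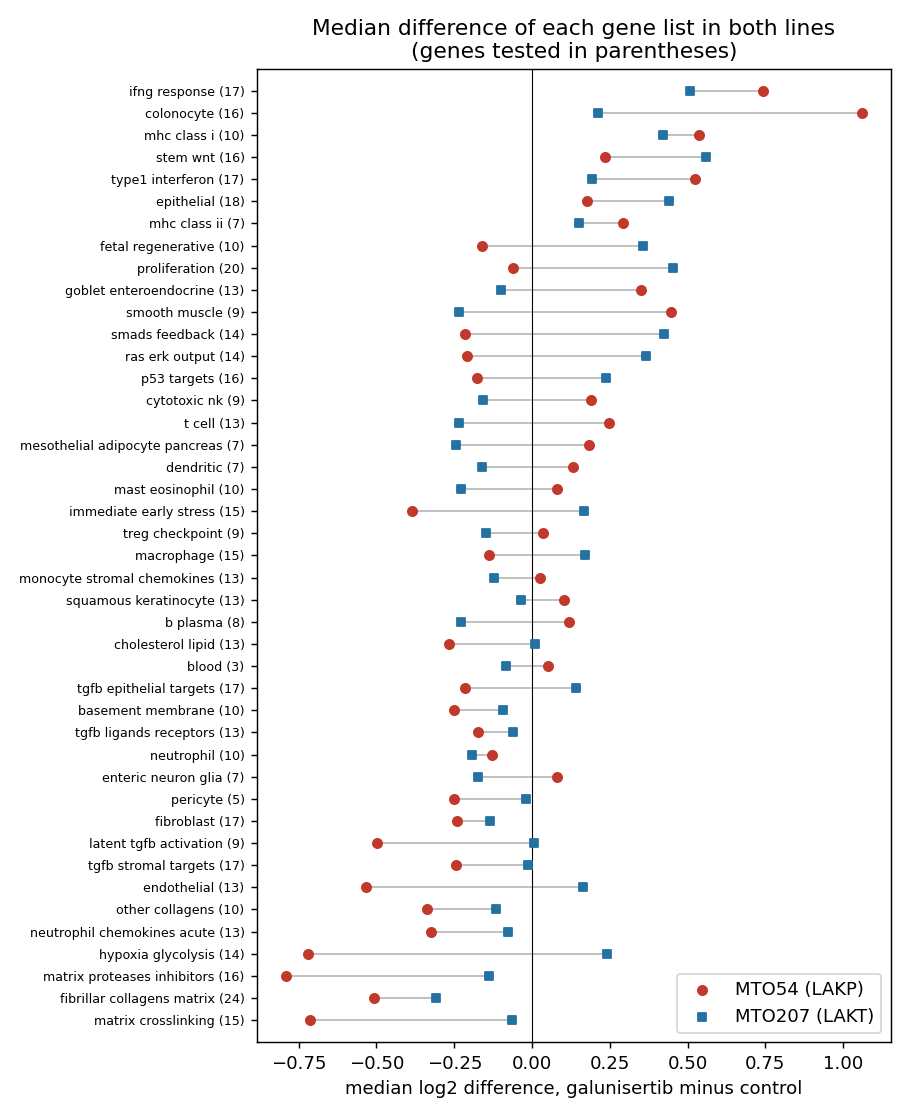
Median log2 difference, galunisertib minus control, of each gene list in MTO54 (circles) and MTO207 (squares), ordered by the median over both lines, with the number of genes tested in parentheses. Matrix lists lie left of 0 in both lines, interferon, colonocyte and Wnt lists lie right of 0 in both, and the hypoxia, endothelial and smooth muscle lists are among those with medians on opposite sides.

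Endothelial genes differed in opposite directions. Of 13 tested, 0 were higher in treated MTO54 tumours (median -0.53) and 9 were higher in treated MTO207 tumours (median 0.16). Treated and control tumours were separate in opposite directions for 7 of 13, against 6.71% of all genes: Cdh5, Cldn5, Esam, Flt1, Pecam1, Robo4 and Tie1. Cdh5, the gene of endothelial cadherin, measured 8.87 and 8.17 against 7.41 and 7.42 in MTO54, and 6.87 and 7.31 against 7.60 and 7.99 in MTO207. Its differences were -1.10 and 0.71, and the test of their difference gave an unadjusted p of 0.13. Pecam1, an adhesion molecule of vessel walls, measured 7.83 and 7.20 against 6.93 and 6.93 in MTO54 and 6.95 and 7.04 against 7.24 and 7.20 in MTO207. Flt1, a VEGF receptor gene, measured 9.09 and 9.24 against 7.83 and 7.98 in MTO54 and 7.59 and 7.52 against 8.03 and 8.07 in MTO207. Its effects differed by -1.76 (SE 0.50, adjusted p 0.618 by limma). Kdr, Emcn, Plvap and Tek were lower in both lines. Control tumours of the lines differed more than treated ones, with a mean level of the list of 6.86 and 6.37 in MTO54 controls, 5.91 and 5.99 in MTO207 controls and 6.00 to 6.16 in treated tumours. The number separate in opposite directions was 7 after quantile normalization and 5 after cyclic loess, and the MTO54 median was -0.20 without MTO54 control replicate 1.

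Genes induced by low oxygen and glycolytic genes were lower in treated MTO54 tumours. Of 14 tested 0 were higher there (median -0.72), while 11 were higher in treated MTO207 tumours (median 0.24). Aldoa, Hk2, Ldha, Pgk1, Slc2a1 and Vegfa were separate in opposite directions, 6 of 14 against 6.71% of all genes and 14.5% of genes at levels between 8 and 9, where the list has its median level. Vegfa, the main growth factor of blood vessels, measured 10.41 and 9.24 against 8.49 and 8.24 in MTO54, and 6.97 and 7.99 against 8.00 and 8.08 in MTO207. Its effects differed by -2.01 (SE 0.52, adjusted p 0.618 by limma), and a second probe set gave -1.52 in MTO54 and -0.17 in MTO207. Slc2a1, a glucose transporter gene, measured 11.00 and 10.61 against 9.69 and 9.61 in MTO54 and 9.82 and 9.82 against 10.14 and 10.31 in MTO207. Ldha, the gene of lactate dehydrogenase A, measured 11.86 and 11.64 against 11.46 and 11.59 in MTO54 and 11.13 and 11.27 against 11.49 and 11.42 in MTO207. Bnip3, a mitophagy gene, differed by -1.72 in MTO54, the widest difference of the list there, and by 0.25 in MTO207 with overlap.

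The direction in MTO207 depended on the scaling. The MTO207 median was 0.00 after quantile normalization and -0.12 after cyclic loess, and 1 and 0 members were then separate in opposite directions. It was -0.01 without MTO207 control replicate 1. The MTO54 median lay between -0.79 and -0.55 under the scalings and the omissions of single tumours. Hypoxia-inducible factors bind the letters ACGTG, and the promoters of 2 of these genes, again from RefSeq (GRCm38.p6), are shown with each ACGTG or its reverse complement CACGT in capitals. Ldha, the first of 2 starts listed, lies at chr7:46845554-46845853 and Pgk1 at chrX:106186850-106187149, both on the plus strand.
Ldha: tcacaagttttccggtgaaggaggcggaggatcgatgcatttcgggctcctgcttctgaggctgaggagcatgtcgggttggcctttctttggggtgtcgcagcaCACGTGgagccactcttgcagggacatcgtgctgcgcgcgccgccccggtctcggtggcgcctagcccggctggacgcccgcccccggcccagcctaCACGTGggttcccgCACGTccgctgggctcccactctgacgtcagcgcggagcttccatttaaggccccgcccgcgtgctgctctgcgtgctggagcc
Pgk1: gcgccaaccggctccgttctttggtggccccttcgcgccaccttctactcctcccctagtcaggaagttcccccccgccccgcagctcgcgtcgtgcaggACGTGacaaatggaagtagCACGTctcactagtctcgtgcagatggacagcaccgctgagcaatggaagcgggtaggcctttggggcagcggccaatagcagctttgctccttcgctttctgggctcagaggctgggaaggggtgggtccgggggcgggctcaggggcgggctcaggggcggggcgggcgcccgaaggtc
The Ldha promoter held 5 matches, counting both strands of the palindrome CACGTG, and the Pgk1 promoter 2. Of all 32851 promoters 19.6% held at least 1 match. The Col3a1 and Sparc promoters held 0.

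**Figure D4:**
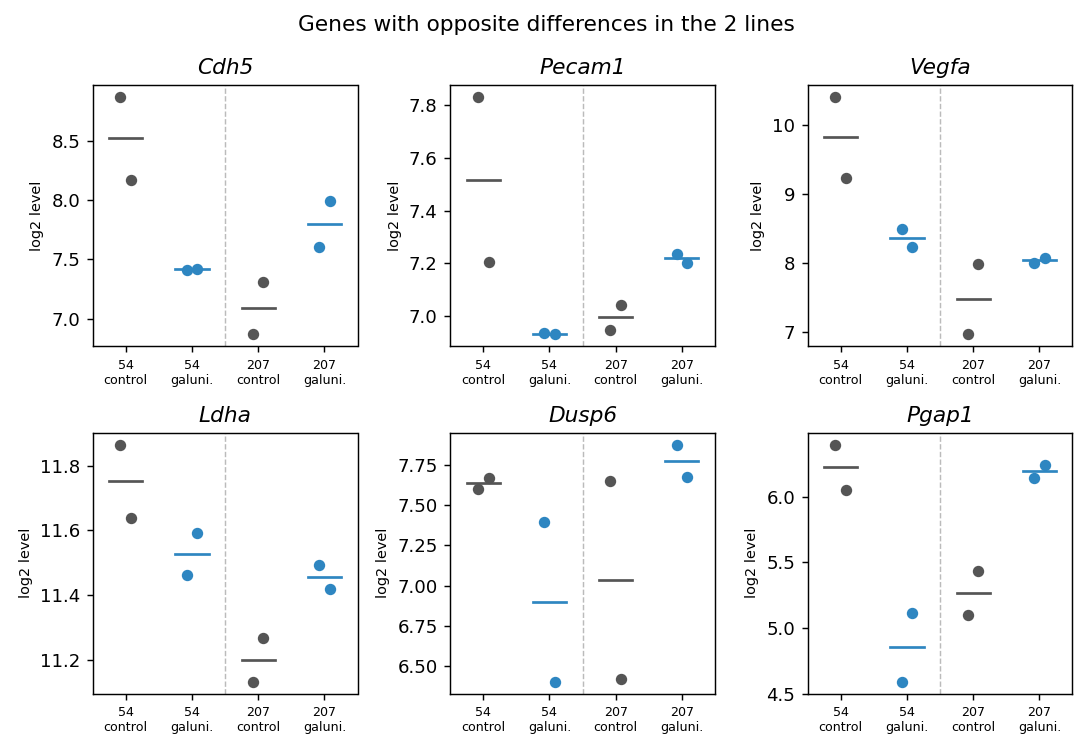
Log2 level of 6 genes in each tumour, with 1 point per tumour, a bar at the group mean and grey points for control and blue points for galunisertib, MTO54 left and MTO207 right of the dashed line. In all 6 genes both treated tumours lie below both controls in MTO54 and above both controls in MTO207.

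Genes that report ERK signalling, immediate early genes and cell cycle genes had positive median differences in MTO207. Of 14 ERK output genes 1 was higher in treated MTO54 tumours (median -0.21) and 13 in treated MTO207 tumours (median 0.37). Dusp6, a phosphatase gene that ERK induces, measured 7.61 and 7.67 against 7.40 and 6.40 in MTO54 and 7.65 and 6.42 against 7.88 and 7.68 in MTO207. It was the only member separate in opposite directions, 1 of 14 against 6.71% of all genes and 8.51% of genes at levels between 6 and 7. Of 15 immediate early and stress genes Egr1, Fos, Junb and Hspa1b were separate in opposite directions, 4 of 15 against 6.71% of all genes and 8.51% of genes at levels between 6 and 7, where the list has its median level. Hspa1b, a heat shock gene, measured 7.52 and 6.01 against 5.67 and 5.91 in MTO54 and 3.85 and 4.24 against 6.15 and 5.41 in MTO207. Of 20 proliferation genes 7 were higher in treated MTO54 tumours (median -0.06) and 19 in treated MTO207 tumours (median 0.45). The ERK and proliferation lists had median levels of 6.97 and 6.86. Of all genes at levels between 6 and 7, 45.6% were higher in treated MTO54 tumours and 54.9% in treated MTO207 tumours. Between 7 and 8 the shares were 34.5% and 73.6%. The part of gene level in these differences was not tested. Mcm5, a subunit of the replication helicase, was separate and higher in both lines, at 0.58 and 0.88, and Mcm7, another subunit, was separate and lower in both, at -0.37 and -0.36.

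Targets of p53 had medians of -0.18 in MTO54 and 0.24 in MTO207, with 5 and 12 of 16 higher. Tnfrsf10b was separate and lower in MTO54 and higher in MTO207, at -0.71 and 0.32, 1 of 16 against 6.71% of all genes. Fas was separate in the reverse directions, at 0.23 and -0.19, 1 of 16 against 7.54% of all genes. P stands for loss of Trp53 in MTO54 tumour cells, and MTO207 cells keep the gene. Cdkn1a, a cell cycle inhibitor gene that p53 and TGF-beta both induce, measured 9.63 and 9.56 against 9.09 and 8.42 in MTO54, and 9.47 and 9.57 against 10.16 and 9.83 in MTO207. It was separate in opposite directions, as were 15.1% of genes with a mean level above 9, and it was not counted among the 16. Mdm2, the ubiquitin ligase gene that p53 induces, measured 8.09 and 7.69 against 7.79 and 7.21 in MTO54, with overlap, and 7.63 and 7.43 against 8.35 and 8.08 in MTO207, without. Ccng1 differed by -0.40 and 0.57. The 16 targets had a median level of 6.81, and the MTO54 median was 0.02 without MTO54 control replicate 1. Of all genes at levels between 6 and 7, 45.6% were higher in treated MTO54 tumours and 54.9% in treated MTO207 tumours. Between 7 and 8 the shares were 34.5% and 73.6%. The part of gene level in these differences was not tested.

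T cell genes showed the reverse pattern at low levels. Of 13 tested 13 were higher in treated MTO54 tumours (median 0.25) and 1 in treated MTO207 tumours (median -0.24). Cd8b1, a chain of the CD8 co-receptor, measured 5.17 and 5.22 against 5.34 and 5.66 in MTO54 and 6.13 and 6.02 against 5.54 and 5.62 in MTO207. Cd4 and Cd5 were also separate in these directions, though Cd5 differed by only 0.02 in MTO54. This made 3 of 13, against 7.54% of all genes and 9.78% of genes at levels between 5 and 6. The median level of the list was 5.61, where 58.9% of all genes were higher in treated MTO54 tumours and 31.9% in treated MTO207 tumours. Cd8a differed by 0.20 and -0.37, Gzmb by 0.46 and -0.35, Cd274 by 0.41 and -0.20 and Foxp3 by 0.01 and -0.10.

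The genes of smallest p for a difference between the lines that were higher in treated MTO207 and lower in treated MTO54 tumours were Pgap1, Hmgn3, Tnfsf9, Eps8, Slc25a48, Vegfa, Hilpda and Cldn6. Pgap1, which remodels the lipid anchor of surface proteins, measured 6.40 and 6.05 against 4.59 and 5.12 in MTO54, and 5.10 and 5.43 against 6.15 and 6.24 in MTO207. Its effects differed by -2.30 (SE 0.40, adjusted p 0.618 by limma), and its other probe set gave -0.39 and 0.46. Tnfsf9, the ligand of a T cell costimulatory receptor, measured 6.05 and 6.19 against 5.54 and 5.61 in MTO54 and 5.83 and 5.75 against 6.51 and 6.49 in MTO207. Eps8, an actin regulator gene, measured 7.67 and 7.79 against 7.19 and 6.90 in MTO54 and 7.10 and 6.86 against 7.65 and 7.93 in MTO207, and its 3 probe sets had the same signs. Hilpda, a lipid droplet gene induced by low oxygen, differed by -1.81 and 0.43. Cldn6, a tight junction gene of embryonic epithelium, measured 9.17 and 11.12 against 7.03 and 6.51 in MTO54 and 8.95 and 9.20 against 9.60 and 9.74 in MTO207.

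In the other direction the genes of smallest p were Prss54, Crh, Pla2g3, Serpina1b, Efhb, H2bc18, Igsf1 and Gucy2e. All 8 had mean levels between 3.95 and 4.94, close to the filter of 4.16. They differed by 0.09 to 0.42 in MTO54 and by -0.64 to -0.31 in MTO207.

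Within single lines, Cldn2, a pore-forming tight junction gene, measured 8.06 and 6.54 against 9.42 and 9.65 in MTO54 (difference 2.24, SE 0.58) and 5.96 and 7.09 against 6.45 and 7.18 in MTO207 (0.29). A second Cldn2 probe set of similar level gave 2.77 in MTO54 and 1.30 in MTO207, so the size of its MTO207 difference depended on the probe set. Sh2d5, an adaptor protein gene, measured 7.28 and 6.81 against 5.12 and 5.21 in MTO54 and 4.67 to 4.91 in the MTO207 tumours. Its difference in MTO54 was -1.87 (SE 0.36), and the treated MTO54 tumours lay above every MTO207 tumour. Pcolce, which enhances procollagen processing, differed by -1.43 in MTO54 (SE 0.31) and by 0.13 in MTO207. In MTO207 the genes of smallest p that were higher included Fxyd3, an ion pump regulator gene of epithelium, at 7.06 and 7.82 against 8.78 and 8.91 (difference 1.41, SE 0.33), and the housekeeping genes Aprt, Psme3, Tomm20 and Eif3i, at differences of 0.80 to 1.14. Those that were lower, such as Icam4, Pglyrp2, Hebp1, Dpysl4 and Nppa, had mean levels under 5, so that bright and dim genes separated here as over all genes. With array weights 144 genes passed in MTO207 by limma, 68 higher and 76 lower.

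**Figure D5:**
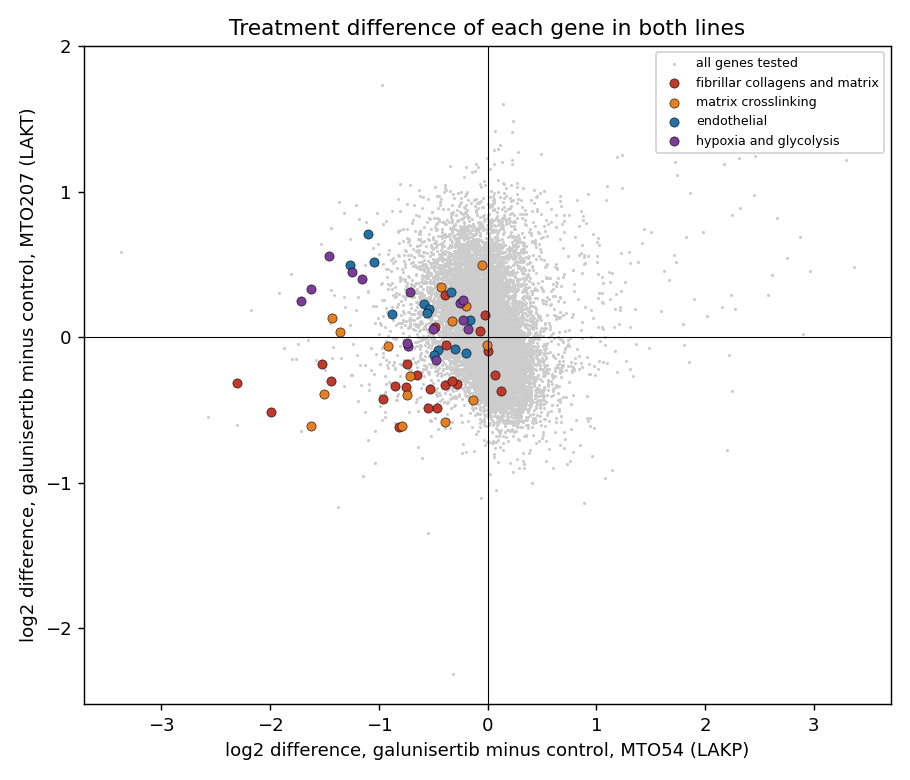
Log2 difference, galunisertib minus control, of every gene tested in MTO54 (x axis) and MTO207 (y axis), with 4 gene lists in colour. Matrix genes gather in the lower left, where both lines are negative, and endothelial and hypoxia genes in the left part, where MTO54 is negative, with most MTO207 values above 0.

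Against the LAKTP lines no gene's effect differed by limma (0 of 15556, lowest adjusted p 1.00, 413 genes or 2.65% at an unadjusted p under 0.05, with 0.939% higher and 1.72% lower). The matrix list had a median of -0.72 in LAKTP tumours against -0.45 in LAKP and LAKT tumours, and Fn1 differed by -1.22 there, Lox by -1.23 and Eln by -1.76. The crosslinking list had -0.53 in LAKTP tumours. Gsta4 differed by 0.01 in LAKTP tumours (SE 0.26), Hopx by -0.02, Irf9 by -0.08 and Rnf43 by 0.00. The difference of effects was 1.52 for Gsta4 (SE 0.41) and 1.37 for Hopx (SE 0.39), with adjusted p 1.00 by limma. The Wnt list had a median of -0.06 in LAKTP tumours. Psca, a surface antigen gene of epithelium, differed by 0.46 over LAKP and LAKT and by -0.31 in LAKTP tumours, and Map3k7cl, Scn7a and Meis2 were the other genes of smallest p in that direction. Atp4a, Tbccd1, Map2k6, Pkd2l1 and Saa1 had the smallest p in the reverse direction. Saa1, an acute phase gene, differed by 2.08 in LAKTP tumours and by -0.37 here. Smooth muscle genes had a median of -0.80 in LAKTP tumours, and 9 of 9 had effects higher in LAKP and LAKT, against 45.0% of all genes higher and 55.0% lower, though MTO207 galunisertib replicate 2 alone moved their MTO207 median from -0.24 to 0.58 when left out.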

How the data were processed

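Expression was measured with 1 Affymetrix HT MG-430 PM array per tumour. The deposited log2 values are per probe set and were made by the authors with RMA and affy (submitters' processing notes, which give no version). RMA scales arrays to each other, so a true shift shared by all genes of an array cannot be told from scaling. The deposited arrays still differed in median and spread, as given above.

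Of 45141 probe sets, 28898 carried 1 gene symbol, 551 several and 15588 none, and 104 were controls; 28689 matched by Entrez ID. The probe set of highest mean over all 20 arrays stood for each of 17097 genes, and 15556 genes that exceeded 4.16 (the 25th percentile) on 2 or more arrays entered the tests. The effect over both lines was fitted on 8 arrays with line as a block, and the effects within lines, their difference and the difference from LAKTP lines in a model of 10 groups on 20 arrays (limma 3.58.1 in R 4.3.3, eBayes with trend, Benjamini-Hochberg adjustment). The script was tested on simulated data. The number of arrays limits the precision. The labels call the samples biological replicates.

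The tumours, the 43 gene lists (637 genes, 563 with a probe set, 542 tested) and the rules were chosen with earlier results of these data known. Genes named were those of smallest p in each direction of each comparison (up to 15 with the same sign in both lines, up to 8 per line and for opposite signs, up to 5 against LAKTP), with predicted genes passed over, up to 5 per list, and a set of TGF-beta and tumour genes. List members named beyond these, such as those separate in both lines, were chosen after their values were seen. Alternatives were the filter, the probe set per gene, scaling, array weights, the variance prior, the samples in the fit, the line block and leaving out each array; cyclic loess and the alternatives for counts of separate genes were added after seeing the data.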

Additional observations from a re-analysis of the deposited data

Results flagged for a closer look

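Lists and genes whose treated tumours moved in opposite directions in MTO54 and MTO207 are given as the MTO54 effect minus the MTO207 effect in log2 units. For lists this is the mean over members, with every tumour of a line on the same side of its controls, and the difference was not tested. It was -0.80 for endothelial genes, -0.67 for ERK output genes, -0.72 for immediate early and stress genes and -0.45 for cholesterol and lipid synthesis genes, all lower in treated MTO54 and higher in treated MTO207 tumours. It was 0.48 for T cell genes and 0.29 for dendritic cell genes, both at low levels.

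Among genes named for an opposite effect, limma's test of the difference did not pass for any (adjusted p 0.618). The difference was -2.30 for Pgap1, -1.21 for Hmgn3, -1.25 for Tnfsf9, -1.49 for Eps8, -1.55 for Slc25a48, -2.01 for Vegfa, -2.24 for Hilpda and -3.96 for Cldn6. It was 0.71 for Prss54, 0.74 for Crh, 0.93 for Pla2g3, 0.87 for Efhb, 0.97 for H2bc18, 0.69 for Igsf1 and 0.49 for Gucy2e, all dim. The spread of the arrays moved with these directions, and its part in them was not tested.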

How the results depend on the processing

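No paired analysis was possible because the labels give no replicate numbers. The count over both lines was 0 under all alternatives run. In MTO54 it was 1 with the probe set of largest SD, 2 over all probe sets, and 0 to 9 when leaving out single tumours, 4 without control replicate 1 and 9 without control replicate 2. In MTO207 it was 144 with array weights and 0 otherwise. The difference of effects passed for 0 to 3 genes and that from LAKTP lines for 0 to 3 when leaving out single tumours, with 3 without MTO54 control replicate 1 and 3 without MTO68 control replicate 1. Genes that passed then included Eomes (-2.45, adjusted p 0.0038 by limma) and Hmgn3 (-1.08, adjusted p 0.0443) in MTO54 without control replicate 1, and Kcnj8 (-1.07, adjusted p 0.0434) without control replicate 2. The count of genes separate and higher in MTO54 but lower in MTO207 was 756 under a stricter filter and 695 after median centring, and that higher in both was 413 after quantile normalization. Leaving out single tumours gave 418 to 1357 higher in both, 554 to 1587 lower in both, 1441 to 3485 higher in MTO54 and lower in MTO207, and 1278 to 2685 of the reverse kind, since 1 tumour separates from 2 more easily than 2 do. With the probe set of largest SD, Rian was 0.38 over both lines, 0.40 in MTO54 and 0.36 in MTO207, and Tbccd1 was 0.016 in MTO207. After cyclic loess, Krt8 was -0.032 and the hypoxia median -0.12 in MTO207. Leaving out single tumours turned the sign of many list medians, among them those of colonocyte, interferon-gamma, MHC class I, MHC class II, macrophage and smooth muscle genes in MTO207. That of endothelial genes over both lines ranged from -0.28 to 0.016 (without MTO54 control replicate 1). In MTO54 the ranges were -0.39 to 0.12 for SMAD and feedback genes, -0.64 to 0.14 for epithelial TGF-beta targets, -0.41 to 0.12 for fetal genes and -0.41 to 0.016 for p53 targets, each positive without control replicate 1, and 0.069 for fetal genes without galunisertib replicate 1. The hypoxia median in MTO207 ranged from -0.0099 (without control replicate 1) to 0.35. The cause of these shifts was not tested. Signal near background limits dim genes, and 2 tumours per group limit every value.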

Other observations

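Of 10 neutrophil genes 10 were lower over both lines, with a median of -0.12, and of 13 neutrophil chemokine and acute phase genes 11 were lower, with a median of -0.27 against 0.35 in LAKTP tumours. Of 7 MHC class II genes 7 were higher over both lines, with a median of 0.23, but the median was -0.08 without MTO207 control replicate 2 and 0.51 without MTO207 control replicate 1. In MTO207 alone it ranged from -0.66 to 0.84 when leaving out single tumours and was -0.26 after cyclic loess. Macrophage genes had medians of -0.14 in MTO54 and 0.17 in MTO207, and both signs turned with a single control left out, at 0.25 without MTO54 control replicate 1 and -0.50 without MTO207 control replicate 2. The MTO207 median was -0.14 after cyclic loess. Mrc1, a mannose receptor gene of tissue macrophages, differed by -0.51 and 0.86, separate in both lines. Cholesterol and lipid synthesis genes had a median of 0.41 in LAKTP tumours, -0.27 in MTO54 and 0.01 in MTO207. Cyp51, Scd1 and Sqle, enzymes of sterol and fatty acid synthesis, were separate and lower in MTO54 and separate and higher in MTO207. This made 3 of 13 against 6.71% of all genes and 8.51% of genes at levels between 6 and 7, where the list has its median level. Other probe sets of Cyp51 gave -0.14 and -0.22 in MTO54 and -0.13 and 0.10 in MTO207.

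Probe sets with no single gene name were tested apart from the genes. Of 12738, 2 passed in MTO54 by limma and 1 passed for the difference from LAKTP lines. The probe set of smallest p measured 7.08 and 6.57 in MTO54 controls against 4.77 and 4.79 in treated tumours (difference -2.05, SE 0.24, adjusted p 0.0054), and 4.90 to 5.02 in the 4 MTO207 tumours. The other one of MTO54 measured 6.67 and 6.00 against 4.95 and 4.96 (difference -1.38, SE 0.20, adjusted p 0.0390) in MTO54, and 4.77 to 5.10 in MTO207. Over both lines 0 of the 12738 passed by limma, with 416 at an unadjusted p under 0.05.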
